A study of Mus musculus with 16 samples.

Results

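The genes described here are the 7 family C type 2 vomeronasal receptors of the mouse, Vmn2r1 to Vmn2r7. They were taken by gene symbol from the deposited count and RPKM tables of a study of the vomeronasal organ (VNO), and all 7 were found among 24407 genes in the count tables. The tables held 121 genes with a Vmn2r number, so that 114 other Vmn2r genes were available for comparison. The study compared the VNO of mice bred for high voluntary wheel running (High Runner, HR) with that of unselected Control mice. All mice were of the outbred Hsd:ICR background, 12 weeks old and from generation 88 of the breeding experiment. There were 4 HR lines (lines 3, 6, 7 and 8) and 4 Control lines (lines 1, 2, 4 and 5), each with a pool of 3 males and a pool of 3 females that were not sibs of each other, which gave 16 RNA-seq libraries. A line was a closed breeding population, so lines rather than libraries were the replicates of a linetype, and the spread between single mice was not measured in pools.

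Type 2 vomeronasal receptors are G protein-coupled receptors with a large extracellular domain, and they are made by the basal sensory neurons of the VNO, which signal through the G protein subunit Gnao1. Most Vmn2r genes are expressed in small sets of neurons, whereas the family C receptors are made broadly across the basal layer, together with a receptor of another family. Vmn2r1 and the group Vmn2r2 to Vmn2r7 are known to mark largely separate populations of basal neurons.

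The 7 genes lie in a cluster on chromosome 3 (GRCm38, GENCODE annotation), from chr3:64081547 to 64844765, a span of 0.763 Mb. Vmn2r1 (chr3:64081547-64109484) is on the plus strand and the other members are on the minus strand. These are Vmn2r2 (chr3:64115278-64141928), Vmn2r3 (chr3:64257215-64289709), Vmn2r4 (chr3:64383044-64415368), Vmn2r5 (chr3:64488609-64509842), Vmn2r6 (chr3:64531310-64565830) and Vmn2r7 (chr3:64685044-64844765). Between the first and the last member the annotation places 16 other genes, of which 13 are pseudogenes, and 1 of these, the transcribed pseudogene Vmn2r-ps11, was in the tables. Vmn2r7 overlaps the noncoding gene Gm26939 on the same strand, and the RefSeq span of Vmn2r1 (chr3:64078172-64220847) takes in Vmn2r2 on the other strand. As the sources do not say whether strand was used in counting, reads of Vmn2r1 and Vmn2r2 may not have been told apart where they overlap. Strand could not tell reads of Vmn2r7 from those of Gm26939 in either case. The coding sequences were between 84.4% identical (Vmn2r1 and Vmn2r3) and 98.5% identical (Vmn2r6 and Vmn2r7). Reads were 75 nucleotides long and were kept by the authors only where they matched the reference at 1 location with 0 mismatches, so the differences between members decided which reads could be counted. The following stretch of 75 coding bases in coding exon 6, the length of 1 read, is shown because it holds between 1 and 7 differences from Vmn2r7. Capitals mark the bases that differ from Vmn2r7.
Vmn2r1 (chr3:64105110-64105184, plus strand): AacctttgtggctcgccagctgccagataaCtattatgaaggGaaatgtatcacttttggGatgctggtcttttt
Vmn2r2 (chr3:64116706-64116780, minus strand): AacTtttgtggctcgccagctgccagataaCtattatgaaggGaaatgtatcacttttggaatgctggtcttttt
Vmn2r3 (chr3:64259235-64259309, minus strand): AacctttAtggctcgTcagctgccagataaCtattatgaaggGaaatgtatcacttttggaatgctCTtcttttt
Vmn2r4 (chr3:64388895-64388969, minus strand): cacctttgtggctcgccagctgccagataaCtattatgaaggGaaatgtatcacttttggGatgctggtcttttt
Vmn2r5 (chr3:64491095-64491169, minus strand): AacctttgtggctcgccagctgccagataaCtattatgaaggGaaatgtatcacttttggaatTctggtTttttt
Vmn2r6 (chr3:64537835-64537909, minus strand): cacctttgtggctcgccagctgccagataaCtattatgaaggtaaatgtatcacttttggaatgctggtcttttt
Vmn2r7 (chr3:64690934-64691008, minus strand): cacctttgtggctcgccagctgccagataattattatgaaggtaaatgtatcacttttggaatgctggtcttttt
At this place a read from Vmn2r6 was told from a read from Vmn2r7 by 1 base, and Vmn2r3 stood apart by 7 bases. Further along the same exon a stretch of 119 bases was identical in all 7 genes (chr3:64105312-64105430 in Vmn2r1), shown here because a read that fell within it could be given to none of them.
Shared stretch: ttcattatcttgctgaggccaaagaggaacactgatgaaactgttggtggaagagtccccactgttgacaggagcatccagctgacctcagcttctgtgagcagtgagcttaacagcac
Of all 75-base words in the coding sequence, 91.4% of those of Vmn2r3, 82.4% of Vmn2r1, 78.5% of Vmn2r2, 64.4% of Vmn2r4, 53.8% of Vmn2r6, 45.6% of Vmn2r7 and 30.0% of Vmn2r5 occurred in no other annotated transcript. The median over 113 other Vmn2r genes with a coding transcript was 82.8%, and 25 of them were below Vmn2r5. Vmn2r6 and Vmn2r7 had 1160 words in common, and Vmn2r5 had 1529 in common with Vmn2r-ps11.

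The libraries held 15998552 to 70875276 reads on genes, and a family C receptor had between 239 and 16329 reads in a library. The VNO markers Omp, a protein of mature sensory neurons, and Gnao1 were present throughout, with line means of 1605 to 2549 and of 338 to 483 CPM, reads relative to the scaled library size. The ion channel gene Trpc2, which defines vomeronasal neurons, and the 4 globin genes of the blood list were listed at 0 in every library, so these markers gave no information. All 16 libraries matched their sex label by X- and Y-linked transcripts, and within a group the libraries differed by more than sampling noise.

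With a single exception, the family C receptors were among the highest Vmn2r genes of the tissue by RPKM. Levels between genes were compared in RPKM, a value relative to gene length and sequencing depth, as the authors gave it. Vmn2r2 was the highest member at 88.04 ± 8.67 RPKM (SD of the line means, n = 8 lines), and 1 of 114 other Vmn2r genes, Vmn2r88 at 121.7 RPKM, was above it. The RPKM of Vmn2r2 in the 16 libraries had a lowest value of 60.1, a median of 86.8 and a highest value of 108.5. Vmn2r1 followed at 74.8 ± 17.1 RPKM, with a range of 43.9 to 97.7 and a median of 80.3 over the libraries. It was below Vmn2r88 and Vmn2r89, the latter at 84.0 RPKM, and above Vmn2r121, which at 69.8 RPKM was the third of the other Vmn2r genes. Vmn2r6 (65.1 ± 9.53), Vmn2r7 (64.1 ± 8.10), Vmn2r3 (56.4 ± 12.7) and Vmn2r4 (42.3 ± 8.88 RPKM, all n = 8 lines) came next. Vmn2r5 stood far below the rest at 5.44 ± 1.54 RPKM, with 3.11 in the lowest, 5.01 in the median and 9.86 in the highest library, and 74 of 114 other Vmn2r genes were above it. The other Vmn2r genes had a median of 8.83 RPKM. These ranks against the other Vmn2r genes took no account of the share of sequence that could be counted. That share was below that of Vmn2r7 in 31 of 113 others, among them Vmn2r30 (42.0 RPKM, 14.7% of coding words unique).

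**Figure D1:**
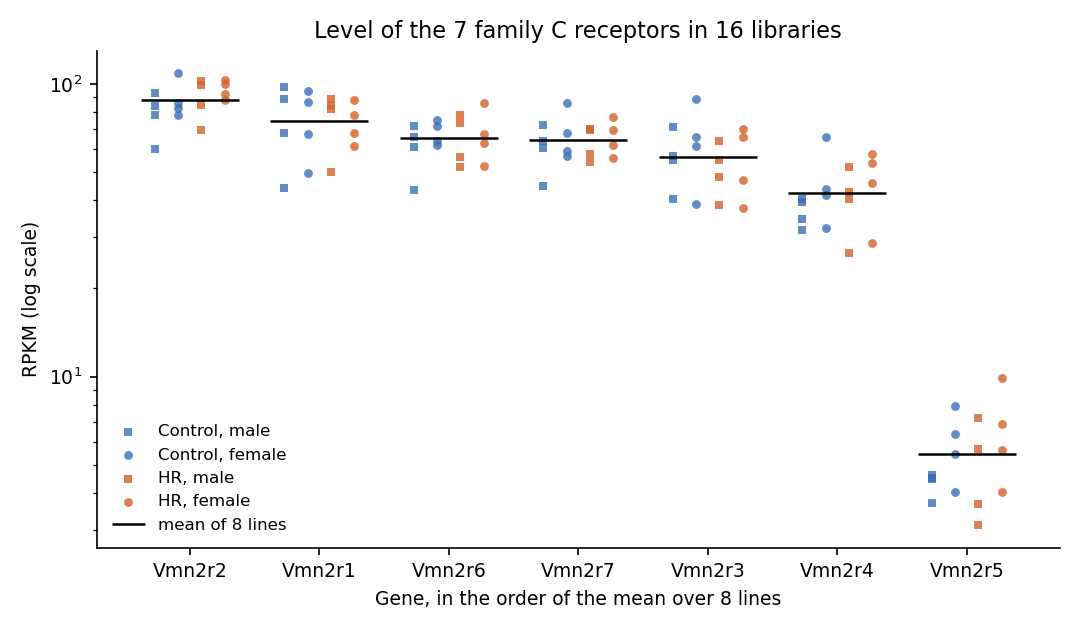
RPKM (log axis) of the 7 family C receptors in 16 libraries, in the order of their mean over the 8 lines (black bars); blue marks Control, orange HR, squares males and circles females. The 6 members from Vmn2r2 to Vmn2r4 have overlapping ranges, and no library of Vmn2r5 exceeds 9.86 RPKM.

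Neighbours in this order were compared within lines with an exact permutation test that flips the sign of each line's difference in log2(RPKM + 0.1), two-sided, in which the smallest possible p with 8 lines was 0.00781, and the 6 p-values were left unadjusted. The order itself was read from the same values. Vmn2r2 exceeded Vmn2r1 in 6 of 8 lines, by 0.26 on the log2 scale (p = 0.0469, exact). This call was lost when any of lines 3 to 8 was left out, with p from 0.0625 to 0.0938 (exact), and in males alone (p = 0.0547, exact). Vmn2r1 and Vmn2r6 did not differ beyond their spread (0.18, 5 of 8 lines, p = 0.188, exact), nor did Vmn2r6 and Vmn2r7 (0.02, 6 of 8 lines, p = 0.547, exact) or Vmn2r7 and Vmn2r3 (0.21, 7 of 8 lines, p = 0.0781, exact). Vmn2r3 was higher than Vmn2r4 in all 8 lines, by 0.41 (p = 0.00781, exact), and Vmn2r4 was 7.73-fold above Vmn2r5, a log2 difference of 2.95, in all 8 lines (p = 0.00781, exact). The order depended on the sequence that could be counted. When RPKM was divided by the share of coding words found in no other gene, an alternative chosen after seeing the data, Vmn2r7 came first at 140.5 and was followed by Vmn2r6 at 121.1, Vmn2r2 at 112.2, Vmn2r1 at 90.9, Vmn2r4 at 65.6, Vmn2r3 at 61.7 and Vmn2r5 at 18.1. In both orders Vmn2r5 was the lowest, while Vmn2r7 moved from the fourth place to the first and exceeded Vmn2r6 in 8 of 8 lines (0.22, p = 0.00781, exact). The division moved the differences of a pair by the same amount in every line. This p-value therefore rests on the chosen shares, whose error it does not include, and is no evidence from the lines that Vmn2r7 was higher. Vmn2r3 was then no longer above Vmn2r4, which exceeded it by 0.09 in 6 of 8 lines (p = 0.273, exact). Over whole transcripts the shares were nearer each other, 98.7% for Vmn2r3, 85.8% for Vmn2r4, 62.6% for Vmn2r5 and 62.2% for Vmn2r7. The order with those shares was not computed.

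Whether selection for running was accompanied by a change of these receptors was asked by comparing 8 HR with 8 Control libraries. None of the 7 family C receptors passed the test between HR and Control mice. In the edgeR quasi-likelihood test 0 of 7 passed an adjusted p of 0.05, and 0 of 7 had an unadjusted p under 0.05. Over all genes 4 of 16507 passed, or 0.0242%, and 545 had an unadjusted p under 0.05. The DESeq2 and limma-voom fits called 0 of the 7 as well. The edgeR fit took the 2 pools of a line as independent, although they resembled each other, so its intervals are too narrow where lines differ. The intervals of a fit to the summed counts of 4 against 4 lines are given beside them. For Vmn2r1 the means of the male and female library were 224, 249, 120.1 and 176 CPM in Control lines 1, 2, 4 and 5, and 144, 192, 216 and 223 CPM in HR lines 3, 6, 7 and 8. The Control values enclosed all HR values, and the difference was 0.01 on the log2 scale (95% interval -0.36 to 0.38). Over lines it was -0.02 (interval -0.55 to 0.52). Vmn2r2, the member of its group nearest to Vmn2r1 on the chromosome, had 199, 209, 163 and 219 CPM in the Control lines and 202, 224, 228 and 221 CPM in the HR lines. Its difference of 0.15 (interval -0.06 to 0.36, over lines -0.11 to 0.35) had the smallest unadjusted p of the members, 0.158, with an adjusted p of 0.9997 in the edgeR fit. Vmn2r3 had a fitted difference of -0.16 (interval -0.51 to 0.19, over lines -0.63 to 0.28), with 144 ± 31.1 CPM in HR and 162 ± 37.5 in Control (SD, n = 4 lines each). Vmn2r4 had 97.7 ± 24.1 CPM in HR and 93.0 ± 18.6 in Control, and Vmn2r5 had 13.6 ± 5.01 and 12.3 ± 2.62. Vmn2r6 had 149 ± 26.9 and 145 ± 18.9, and Vmn2r7 had 156 ± 17.3 and 155 ± 25.1 CPM. The line values of HR and Control overlapped for every member. Over lines the widest interval was that of Vmn2r5, from 0.752-fold to 1.67-fold, and the narrowest that of Vmn2r2, from 0.929-fold to 1.27-fold. The median difference over the 7 members was 0.05, against 0.03 over 111 other Vmn2r genes tested, and 0.00 over all genes tested. Of the 111 other Vmn2r genes 18 had an unadjusted p under 0.05 over libraries and 8 over lines. Over all genes tested these counts were 545 of 16507 and 207 of 17104.

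**Figure D2:**
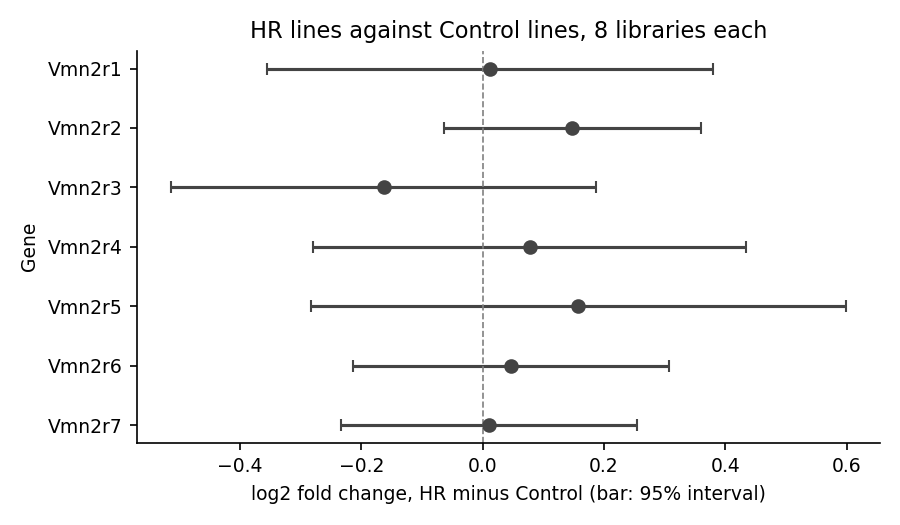
Fitted log2 fold change (HR minus Control, x axis) of each family C receptor with its 95% interval, from a fit to 16 libraries that takes the 2 pools of a line as independent. The interval of every member includes 0, from the narrowest, Vmn2r2 (-0.06 to 0.36), to the widest, Vmn2r5 (-0.28 to 0.60).

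The lines themselves differed. Of the 7 receptors, 4 differed among the 8 lines in the edgeR F test: Vmn2r1 (adjusted p = 0.00267), Vmn2r3 (0.0199), Vmn2r5 (0.0217) and Vmn2r4 (0.0370). The background was high, since 4344 of 16507 genes, 26.3%, passed in the same test, and 88 of the 111 other Vmn2r genes tested passed as well. Vmn2r6 (adjusted p = 0.0862), Vmn2r7 (0.185) and Vmn2r2 (0.402) did not pass. Without line 7, a line low in Vmn2r3, Vmn2r4 and Vmn2r5, only Vmn2r1 was called by edgeR. Vmn2r3 was also lost without line 2, Vmn2r5 without line 3 and Vmn2r4 without line 8.

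Vmn2r1 ranged over lines by 2.07-fold. It was lowest in Control line 4, with 115 CPM in males and 125 in females, and in HR line 3, with 132 and 155 CPM, and highest in Control line 2, with 260 and 238 CPM. Male and female libraries of a line lay close together, with an SD within lines of 0.13 against 0.36 between line means on the log2 CPM scale. The order of the lines was another for the other called members. Vmn2r3 had line means of 186, 110.1, 158 and 193 CPM in Control lines 1, 2, 4 and 5, and of 156, 138, 105 and 178 CPM in HR lines 3, 6, 7 and 8. Its lowest lines were 7 and 2, of which line 2 was the highest for Vmn2r1. Vmn2r4 had 92.8, 75.7, 84.5 and 119 CPM in the Control lines and 112, 109.7, 61.8 and 107 CPM in the HR lines, again with lines 7 and 2 the lowest and a range of 1.87-fold. Vmn2r5 had 9.12, 11.7, 12.7 and 15.5 CPM in the Control lines and 20.4, 13.4, 8.40 and 12.4 CPM in the HR lines. It was lowest in line 7 and highest in line 3, 2.41-fold apart, the widest range of the 7. Lines with low values were thus found in both linetypes for each of these 4 genes.

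**Figure D3:**
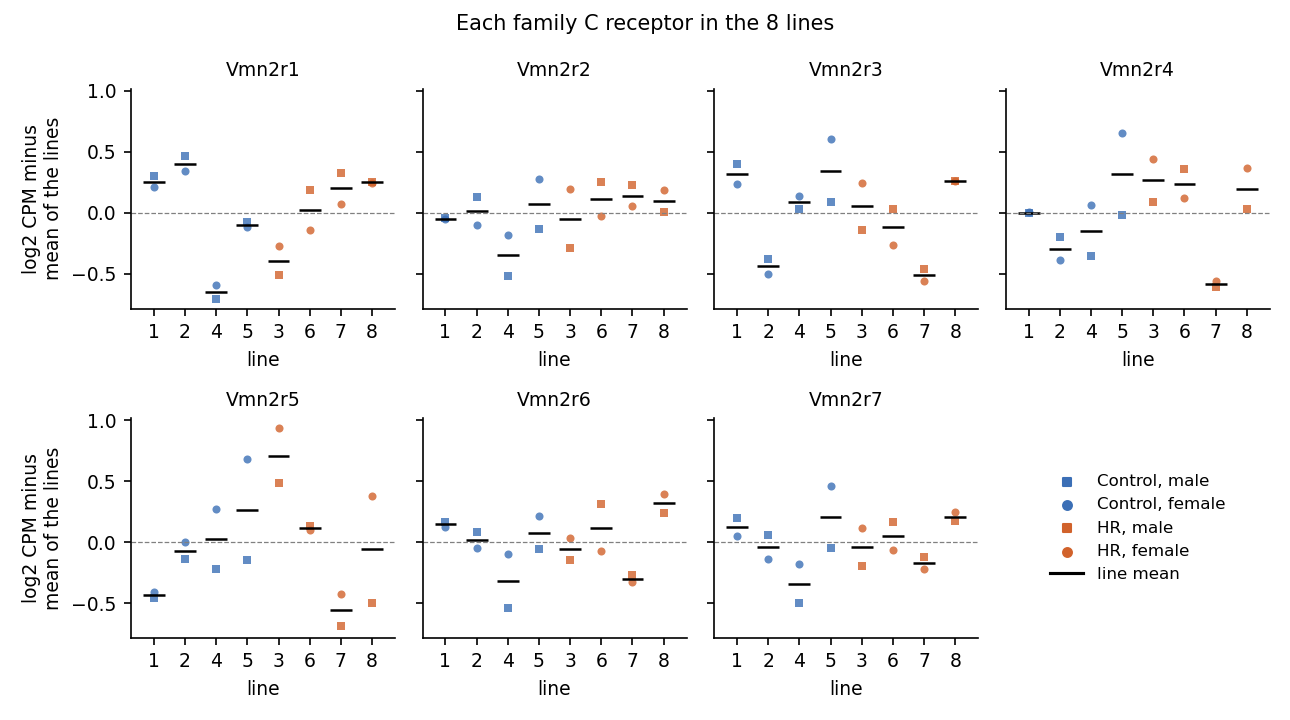
Log2 CPM of each family C receptor minus its mean over lines (y axis), in the 4 Control lines (blue) and 4 HR lines (orange); squares are male pools, circles female pools and black bars line means. Vmn2r1 is low in lines 4 and 3, whereas Vmn2r3 and Vmn2r4 are low in lines 7 and 2, and Vmn2r2 and Vmn2r7 vary least.

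The members that did not pass varied less between lines. Vmn2r2 had an SD over the 8 line means of 0.16 on the log2 CPM scale, Vmn2r7 of 0.19 and Vmn2r6 of 0.22, against SDs within lines of 0.21, 0.20 and 0.18. Vmn2r2 ranged from 163 CPM in line 4 to 228 in line 7. Vmn2r6 ranged from 118 CPM in lines 4 and 7 to 181 in line 8, and Vmn2r7 from 122 in line 4 to 180 in line 5. The SDs of Vmn2r4 (0.32), Vmn2r3 (0.33), Vmn2r1 (0.36) and Vmn2r5 (0.40) were larger. The median SD was 0.32 over the 7 members, 0.50 over the 111 other Vmn2r genes tested and 0.19 over all genes tested. With the summed counts of the other Vmn2r genes as library size these medians became 0.21, 0.45 and 0.25, so that the members then lay below all genes rather than above them. Of the 111 other Vmn2r genes, 4 varied less than Vmn2r2 and 45 varied less than Vmn2r5. The most even of the others were Vmn2r51 (SD 0.12), Vmn2r118 (0.12) and Vmn2r83 (0.15), and the least even were Vmn2r45 (3.40), Vmn2r8 (2.91) and Vmn2r16 (2.59), whose line means ran from 0.0592 to 30.9, from 1.15 to 132 and from 0.342 to 32.5 CPM. No family C receptor fell to such levels in any line. The 9 other Vmn2r genes with at least the mean RPKM of Vmn2r4 had a median SD of 0.25 (0.17 to 0.52). The 6 members with at least that level had SDs from 0.16 (Vmn2r2) to 0.36 (Vmn2r1). The part of the level of the genes in the comparison of medians was not tested.

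**Figure D4:**
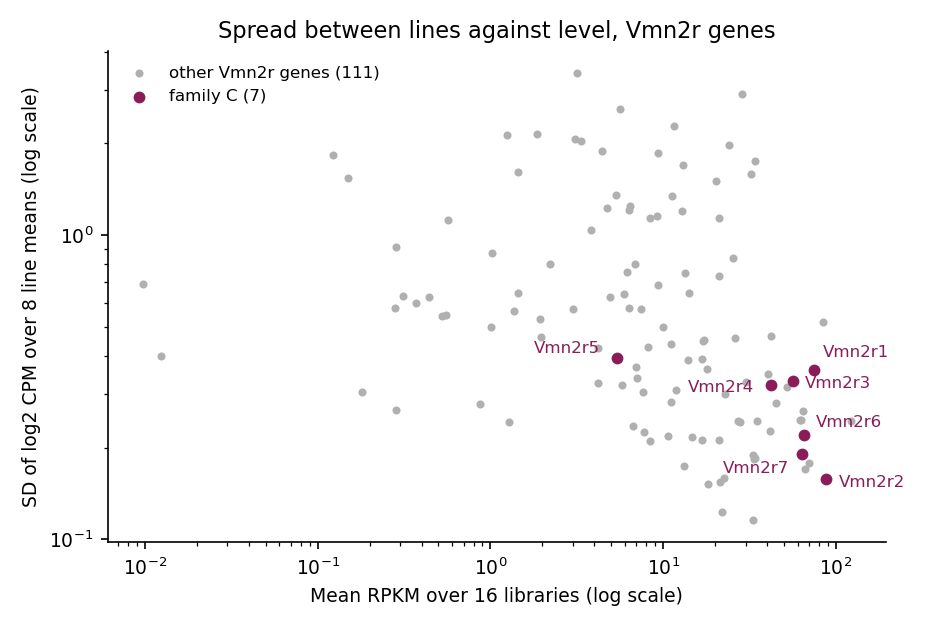
SD of log2 CPM over the 8 line means (y axis, log scale) against mean RPKM (x axis, log scale) for 7 family C receptors (purple) and 111 other Vmn2r genes tested (grey). The family C receptors have SDs of 0.16 to 0.40, whereas the other genes reach 3.40.

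Together the family C receptors took up a similar share of Vmn2r reads in all lines. They made up 17.4% ± 1.32 of all reads counted on Vmn2r genes (SD of line means, n = 8 lines), from 15.3% in line 7 to 19.3% in line 3. Vmn2r1 accounted for 3.45% ± 0.523 and Vmn2r2 to Vmn2r7 for 14.0% ± 1.64. HR and Control lines had 17.2% ± 1.67 and 17.6% ± 1.08 (n = 4 lines each), a difference smaller than the spread within either. The ratio of the group Vmn2r2 to Vmn2r7 to Vmn2r1 varied more, from 2.83 reads for each read of Vmn2r1 in line 2 and 3.05 in line 7 to 5.42 in line 3 and 5.46 in line 4. Lines of both linetypes lay at both ends. In this bulk tissue, fewer neurons of a type and less RNA per neuron could not be told apart.

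The receptors did not vary together as 1 group. Correlations of log2 CPM over the 16 libraries, after the mean of each linetype and sex was removed, are given as a description without a test, as the points share libraries, scaling and, in pairs, a line. Vmn2r6 and Vmn2r7 were most alike (Pearson r = 0.90, Spearman rho = 0.91), and their coding sequences were 98.5% identical. Vmn2r3 and Vmn2r4 had r = 0.83 (rho = 0.78) at 89.3% identity, Vmn2r2 and Vmn2r7 had r = 0.78 (rho = 0.76) at 88.1%, and Vmn2r4 and Vmn2r5 had r = 0.74 (rho = 0.71) at 88.1%. Vmn2r2 and Vmn2r5, at 93.1% identity, had r = 0.05 (rho = 0.13). Vmn2r1 had positive values with Vmn2r2 (0.68), Vmn2r6 (0.53) and Vmn2r7 (0.51), but values of -0.17 with Vmn2r4, -0.19 with Vmn2r3 and -0.48 with Vmn2r5. Reads that a difference between the mice and the reference made uncountable, or moved to another member, were not measured, and their part in these values was not tested.

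**Figure D5:**
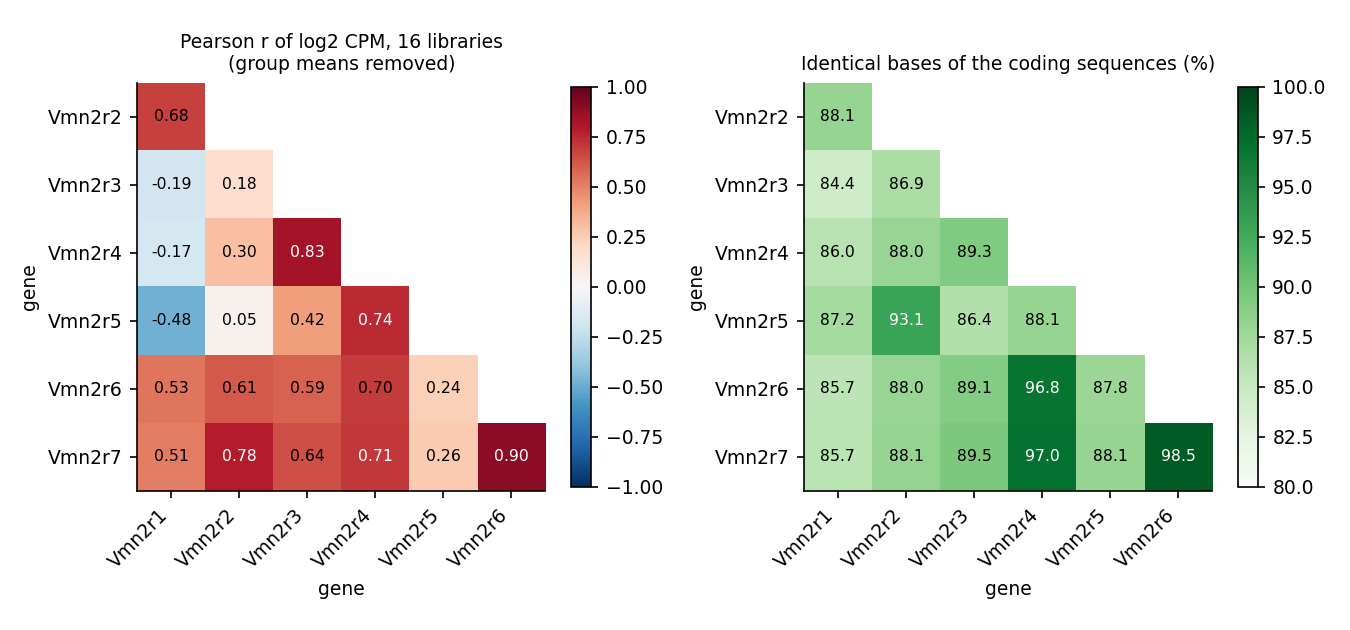
Left, Pearson r of log2 CPM for each pair of family C receptors over 16 libraries with the 4 group means removed; right, the share of identical bases in their coding sequences (%). Vmn2r6 and Vmn2r7 have the highest value in both, and Vmn2r1 has values below 0 with Vmn2r3, Vmn2r4 and Vmn2r5.

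The genes most like Vmn2r1 and those most like the mean of Vmn2r2 to Vmn2r7 were different. This mean joins members that did not vary together. Vmn2r2, Vmn2r6 and Vmn2r7 had positive r with Vmn2r1 (0.68, 0.53 and 0.51), and Vmn2r3, Vmn2r4 and Vmn2r5 negative (-0.19, -0.17 and -0.48). A low value of the mean can therefore hide opposite values of its members and is not a trait of each of them. The 5 genes outside the family with the highest r to Vmn2r1 over the 16 libraries were Tollip (0.96), Cntn4 (0.95), Rgmb (0.95), Glce (0.94) and Ift80 (0.94). Cntn4 encodes a neuronal cell adhesion molecule and had a mean of 1123 CPM, Rgmb is a co-receptor of bone morphogenetic proteins, and Ift80 takes part in intraflagellar transport. The genes most like the mean of Vmn2r2 to Vmn2r7 had lower values: AU041133 (0.85), Clint1 (0.83), Dhx8 (0.83), 3110070M22Rik (0.83) and Zbtb21 (0.82). Clint1 binds clathrin and Dhx8 is an RNA helicase of the spliceosome. The 111 other Vmn2r genes had a median r of 0.48 with Vmn2r1 and of 0.06 with the mean of Vmn2r2 to Vmn2r7, and 87 of them were closer to Vmn2r1. The medians over all genes tested were 0.04 and 0.00, and the 95th percentiles 0.74 with Vmn2r1 and 0.54 with the mean. The values of single markers and lists given below are to be read beside these percentiles. Omp had r = 0.63 with Vmn2r1, 0.12 with Vmn2r2, 0.23 with Vmn2r6, 0.00 with Vmn2r7, -0.31 with Vmn2r3, -0.45 with Vmn2r4 and -0.61 with Vmn2r5. Vmn2r1 had r = 0.71 with the apical marker Gnai2 and 0.44 with the basal marker Gnao1, and 0.71 and 0.52 with the summed apical and basal lists, while the mean of Vmn2r2 to Vmn2r7 had -0.32 and -0.37 with these lists. With the summed signalling genes of basal neurons, mostly Gnb1, Vmn2r1 had r = 0.78 and the mean of Vmn2r2 to Vmn2r7 had -0.16. The part of the neuron content of the pools in these values was not tested. When Omp reads were used as the library size, an alternative chosen after seeing the data, Vmn2r1 no longer passed among lines (adjusted p = 0.0564, edgeR), whereas Vmn2r3, Vmn2r4 and Vmn2r5 did.

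The pseudogene Vmn2r-ps11, which lies within the cluster and shares much of its sequence with Vmn2r5, had 140 to 1383 reads per library and a mean of 2.78 RPKM. It had r = -0.50 with Vmn2r5 and 0.47 with Vmn2r1 over the 16 libraries, and it passed neither between HR and Control nor among lines (adjusted p = 0.330, edgeR).

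The signalling genes of basal neurons and the markers of the cell types in the tissue were read beside these values. Over all genes tested 26.3% passed among lines and 0.0242% between HR and Control, the background for each count of a list. Of the 9 signalling genes tested of 10 listed, 0 differed between HR and Control and 5 among lines. These 5 were the G protein subunit Gnb1, the calcium release channel Itpr3 and the potassium channels Kcnn3, Kcnj3 and Kcnj6. Of the basal markers, 1 of 4 passed among lines (Tfap2e, a transcription factor of basal neurons, adjusted p = 0.0169, edgeR), and of the apical markers 1 of 4 (Gnai2, adjusted p = 0.0306). Of the mature markers 1 of 3 tested passed (Cnga4). All 10 genes of the nonclassical MHC list, which are class I molecules made in basal neurons with their partner B2m, passed among lines. Their summed level ran from 964 CPM in line 3 to 1745 in line 1. None of the genes tested in the lists described here passed between HR and Control by edgeR.

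Marker lists named for other tissue were correlated with Vmn2r1 in both directions, negatively for cartilage and bone, glands and cilia. The summed level of 4 cartilage and bone genes, mostly Col1a1, was highest in lines 3 (1137 CPM) and 4 (986 CPM), the lines lowest in Vmn2r1, and 268 to 546 CPM in the other lines. Its r with Vmn2r1 was -0.87 over the 16 libraries, and with the mean of Vmn2r2 to Vmn2r7 it was -0.01. Of this list 3 of 4 genes passed among lines, against 26.3% of all genes tested. The 5 gland genes in the tables, mostly the secreted odorant-binding protein gene Obp2a, ran from 2545 CPM in line 8 to 53787 in line 5, with r = -0.58 with Vmn2r1 and 0.08 with the mean of the group, and 3 of 5 passed. The cilia list ran from 35.3 CPM in line 8 to 106.0 in line 5 (r = -0.59 and 0.25, 0 of 4 passed). The main olfactory list, mostly Ano2 (mean 184 CPM), ran from 219 CPM in line 3 to 287 in line 8 (r = 0.74 and -0.12, 3 of 4 passed). Its channel gene Cnga2 had a mean of 0.770 CPM, Gnal of 7.18 and Adcy3 of 60.8. In the cartilage and bone list Col2a1, Acan and Col9a1 had means of 1.71, 1.74 and 0.470 CPM. These sums thus mostly followed Ano2 and Col1a1, and whether they stood for the named tissue was not tested. The part of other tissue in the differences of Vmn2r1 between lines was not tested.

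Males and females did not differ in any family C receptor past the threshold. In the edgeR test 0 of 7 passed, and 0 of 7 had an unadjusted p under 0.05. Over all genes 31 of 16507 passed, or 0.188%, and 1333 had an unadjusted p under 0.05. With the line as a block, which compares the male and the female pool of the same line, 0 of 7 passed while 90 genes did. Vmn2r5 came nearest. Its lowest, median and highest CPM over 8 libraries each were 9.18, 14.1 and 23.6 in females and 7.61, 10.8 and 17.3 in males, and it was higher in females in 7 of 8 lines. The difference was 0.41 on the log2 scale (95% interval -0.03 to 0.85, adjusted p = 0.660), and 0.38 with the block (interval 0.14 to 0.63, unadjusted p = 0.00539, adjusted p = 0.134). The differences of the other members lay between -0.08 (Vmn2r1) and 0.20 (Vmn2r4). Males and females were deposited in separate tables and 8 libraries were sequenced to a lane, so sex and sequencing run may not be told apart. The difference between HR and Control was not detectably different between the sexes for any member, as 0 of 7 passed the interaction test of edgeR and 0 had an unadjusted p under 0.05, against 0 of 16507 genes passed (0%) and 65 with an unadjusted p under 0.05. DESeq2 called 0 of 7 in both comparisons.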

How the data were processed

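RNA from VNO pools of 3 mice was sequenced as 75-nucleotide single-end reads after ribosomal RNA depletion with a directional kit. The authors aligned reads to GRCm38/mm10 with STAR 2.6.1d, accepting 0 mismatches and 1 location. The deposited counts are whole reads per gene; the counting tool and its use of strand are not given in the sources used here. The deposited RPKM values came from the authors' Cufflinks (Cuffdiff) run, separately for each sex. Gene lengths implied by counts and RPKM were 0.875 to 1.06 times that of Vmn2r1. Male reads outside genes or ambiguous between genes (25.7% to 29.6% and 1.29% to 1.72% of reads on genes), together with 4 summary entries and 2 gene names that occur more than once, were left out.

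The members and gene lists were chosen with earlier results of these data known. Counts were tested with edgeR 4.0.16 (TMM scaling, filterByExpr with a minimum count of 10, quasi-likelihood F test, Benjamini-Hochberg adjustment over all 16507 genes tested, threshold 0.05) in R 4.3.3. Log2 CPM used a prior count of 2. The comparison of HR with Control had sex as covariate, that among lines sex, and that of the sexes linetype. DESeq2 1.42.0, limma 3.58.1, other scalings and left-out lines were alternatives. The tests were checked on simulated counts. For HR against Control these counts held no differences between the lines of a linetype, so the check could not show its error rate where lines differ. The line number pairs the male and female pool of a line: their deviations from the group means had correlations of 0.32 to 0.71 over all genes. Genes named besides the members were, by rule, the 5 most correlated with each pattern, the 3 highest, 3 most even and 3 least even other Vmn2r genes, the gene of the tables within the cluster, and list members. Coding words, identities and positions came from GENCODE M21 on GRCm38. The result of 1 marker list is not reported here.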

Additional observations from a re-analysis of the deposited data

Results flagged for a closer look

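Vmn2r1 in the male pool of HR line 3 had a log2 CPM of 7.04, while the other 3 male HR pools lay between 7.74 and 7.88. The gap to the nearest pool was 0.840 of the whole range of the group. It was the only one of 28 sets of 4 libraries (7 receptors in 4 groups) to stand apart in this way. Chance gives about 1 in 20, so 1 of 28 was no more than chance would give. The female pool of the same line was also the lowest of the female HR pools, at 155 CPM for Vmn2r1.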

How the results depend on the processing

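The 0 of 7 calls between HR and Control, between the sexes and for their interaction were the same under every alternative run, including RLE scaling, DESeq2, no filter on low counts and the left-out lines. The line as a replicate block, pairing the 2 sexes of a line, also called 0 of 7 receptors for sex and 0 for the interaction. Among lines 4 receptors were called with RLE, without the filter and within linetypes, 5 with DESeq2 (Vmn2r6 added), 6 with the summed counts of other Vmn2r genes as library size and 3 with Omp counts. Leaving out 1 line gave 1 to 5, the lowest without line 7; the cause was not tested. The order of levels had 3 of 6 neighbouring pairs past 0.05 with every alternative and 2 to 3 with 1 line left out, but not always the same pairs. With RPKM per countable share, a division that moves all lines alike, Vmn2r7 over Vmn2r6 passed and the direction between Vmn2r3 and Vmn2r4 turned. In males alone Vmn2r1 over Vmn2r6 (p = 0.0469, exact) took the place of Vmn2r2 over Vmn2r1. Without line 4 Vmn2r7 over Vmn2r3 took that place (p = 0.0156, exact). The median spread of 0.32 fell to 0.21 with the counts of other Vmn2r genes as library size (the cause was not tested), below the 0.25 of all genes, and was 0.23 to 0.34 with a line left out. The share of 17.4% lay between 17.2% and 17.7%.

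The sign of uncalled HR differences near 0 was not stable. With the counts of other Vmn2r genes as library size the log2 differences were -0.048 for Vmn2r1, -0.017 for Vmn2r6 and -0.048 for Vmn2r7, and with Omp counts -0.035, -0.0088 and -0.058. In summed lines they were -0.015 for Vmn2r1 and -0.0044 for Vmn2r7, and in females alone -0.0061, -0.018 and -0.036 for Vmn2r1, Vmn2r6 and Vmn2r7. With 1 line left out they ran from -0.16 to 0.16 (Vmn2r1), -0.0028 to 0.24 (Vmn2r4), -0.10 to 0.33 (Vmn2r5), -0.059 to 0.14 (Vmn2r6) and -0.089 to 0.089 (Vmn2r7). Of the differences between sexes, Vmn2r3 and Vmn2r6 became -0.015 and -0.018 with the counts of other Vmn2r genes as library size, and Vmn2r3 and Vmn2r7 ran from -0.019 to 0.11 and from -0.0065 to 0.11 with a line left out. The counts of all genes called moved more: among lines 7042 with DESeq2, against 4344, 8572 and 6319 with Vmn2r and Omp counts as library size, and 2556 to 4522 with a line left out. Between HR and Control they were 30 with DESeq2, 0 with limma-voom, with summed lines and in 1 sex alone, 1 with Omp counts and 1 to 17 with a line left out, against 4. Between sexes they were 182 with DESeq2, 90 with the block, 19 without the filter, 7 with Vmn2r counts as library size and 13 to 25 with a line left out, against 31.

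Each receptor had at least 239 reads in each library. Reads in stretches shared between members were not counted, and the countable share of the coding sequence was lowest for Vmn2r5.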
